A study of Mus musculus with 16 samples.

Results

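A set of 10 genes of immune inhibition was followed through 16 mouse melanomas: the ligands Cd274 (PD-L1), Pdcd1lg2 (PD-L2), Lgals9 (galectin-9), Cd80 and Cd86, the receptors Pdcd1 (PD-1), Ctla4, Havcr2 (TIM-3) and Lair1, and the enzyme Ido1. They were chosen by name. The array carries 15 probes for these 10 genes, of 41174 probes and 30027 gene names in all. The tumours were B16-BL6, a transplantable melanoma line, in male C57BL/6J mice aged 8 weeks, and fell into 4 groups of 4. Control mice were untreated, an ALA group received 50 mg/kg 5-aminolevulinic acid (ALA, a precursor of heme and of the photosensitiser protoporphyrin IX) at the tumour, an X-ray group received fractionated irradiation, and the combined group (ALA plus X-ray) received ALA at 50 mg/kg before each X-ray fraction. No host carried a mutation named in the labels, B16-BL6 is 1 line, and the radiation dose is not given in the sources used here. The question was what ALA adds to irradiation of the tumour.

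Checkpoint genes encode brakes on immune cells. PD-1 and CTLA-4 sit mainly on T cells. PD-1 is engaged by PD-L1 or PD-L2, which tumour cells and myeloid cells can display, while CTLA-4 competes with the activating receptor CD28 for CD80 and CD86 on antigen-presenting cells. TIM-3, found on exhausted T cells and also on macrophages and dendritic cells, binds galectin-9, and LAIR-1 is an inhibitory collagen receptor carried by many leukocytes. Indoleamine 2,3-dioxygenase, the product of Ido1, starts the breakdown of tryptophan to kynurenine, which restrains T cells. Interferon gamma is a known inducer of PD-L1, galectin-9 and Ido1.

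The measurements rest on single 60-base probes, so 2 probes that registered main results and 2 that stayed dark are shown first. The Lgals9 probe lies at chr11:78776964-78777023 and the Cd86 probe at chr16:36615381-36615440, both on the minus strand of mm9 as the array annotation gives it. The Havcr2 probe at chr11:46269921-46269980 and the Cd80 probe at chr16:38474174-38474233, on the plus strand, were never well above background (the scanner software's flag for a spot clearly brighter than its surroundings).
Lgals9 A_51_P500813: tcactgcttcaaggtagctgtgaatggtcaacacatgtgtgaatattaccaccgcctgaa
Cd86 A_51_P174723: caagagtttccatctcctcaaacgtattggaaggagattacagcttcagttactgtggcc
Havcr2 A_52_P560535: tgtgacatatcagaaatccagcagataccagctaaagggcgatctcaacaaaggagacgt
Cd80 A_52_P244005: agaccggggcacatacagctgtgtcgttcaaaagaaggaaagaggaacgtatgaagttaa
Exon and UTR positions were not used here, since no annotation of that build was at hand.

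Upstream sequence was examined for 8 of the 10 genes. RefSeq promoter entries of build GRCm38.p6, a later build whose coordinates are not comparable with the probe positions, were matched by symbol, and Cd86 and Ido1 were not matched. The 250 bases before each start were searched on both strands for the core of the interferon-stimulated response element (a pair of GAAA half-sites with 2 bases between them), the gamma-activated site (TTCNNNGAA) and the AP-1 site (TGANTCA). The 3 motifs were present in 2.98%, 7.02% and 6.75% of 32851 promoter windows of this length. Shown here are Lgals9, the 1 window of the 8 with a response element core, and Cd274, whose product is a known interferon-inducible ligand and whose window held none of the 3. Capitals mark the match, which runs from 55 to 46 bases before the start and reads as the motif on the opposite strand.
Lgals9 promoter, chr11:78984925-78985174, minus strand, GRCm38.p6: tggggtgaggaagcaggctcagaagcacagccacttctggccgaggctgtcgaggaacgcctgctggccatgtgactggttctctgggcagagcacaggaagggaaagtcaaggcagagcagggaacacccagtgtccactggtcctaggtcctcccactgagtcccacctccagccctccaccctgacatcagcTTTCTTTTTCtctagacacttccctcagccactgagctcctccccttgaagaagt
Cd274 promoter, chr19:29367188-29367437, plus strand, GRCm38.p6: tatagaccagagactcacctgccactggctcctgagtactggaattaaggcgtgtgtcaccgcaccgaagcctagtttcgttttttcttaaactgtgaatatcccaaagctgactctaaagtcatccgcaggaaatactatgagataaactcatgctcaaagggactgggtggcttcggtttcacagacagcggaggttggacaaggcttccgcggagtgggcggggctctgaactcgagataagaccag
The Havcr2 and Cd80 windows each held an AP-1 match (TGATTCA), at 200 to 194 and at 42 to 36 bases before the start. The windows of Ctla4, Pdcd1, Lair1 and Pdcd1lg2 held none of the 3 motifs. A match describes letters only.

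Values are log2 signal minus the 75th percentile of the same array, so 0 marks a spot as bright as that percentile and each step of 1 is a doubling. The percentile itself ran from 213 to 478 over the control, ALA and X-ray arrays and from 366 to 521 over the combined arrays, and no spot was saturated. Each of the 4 slides carried 1 array of every group and equals the replicate number, while the place of an array within its slide went by group, so place and group cannot be told apart. All 7 melanocyte markers examined were well above background on every array, with a summed signal of 859.8 to 1214 times the percentile. Of the 10 genes, 6 were bright enough for the linear model (well above background on at least 4 arrays), in which 15409 genes were tested with limma and Benjamini-Hochberg adjustment. The labels describe 1 tumour preparation from a mouse per array, so the p-values measure the spread between those preparations. In RNA from whole tumours, fewer cells of a type and less RNA per cell cannot be told apart.

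Tumours given ALA before irradiation had the highest group mean for all 6 measured genes. Against ALA alone, Lair1, Havcr2, Cd86 and Lgals9 rose, and against control Havcr2 and Cd86 rose. Lair1 also passed against X-ray alone (adjusted p = 0.0429, limma), a call that was lost with the slide as a block (0.0544), with the authors' value table (0.0547) and in 12 of 16 fits with 1 array left out. None of the 6 passed the test after either treatment by itself. The level plots by tumour show that X-ray replicate 1 and ALA plus X-ray replicate 1, both on slide 1, stood away from the rest of their groups for most of these genes.

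**Figure D1:**
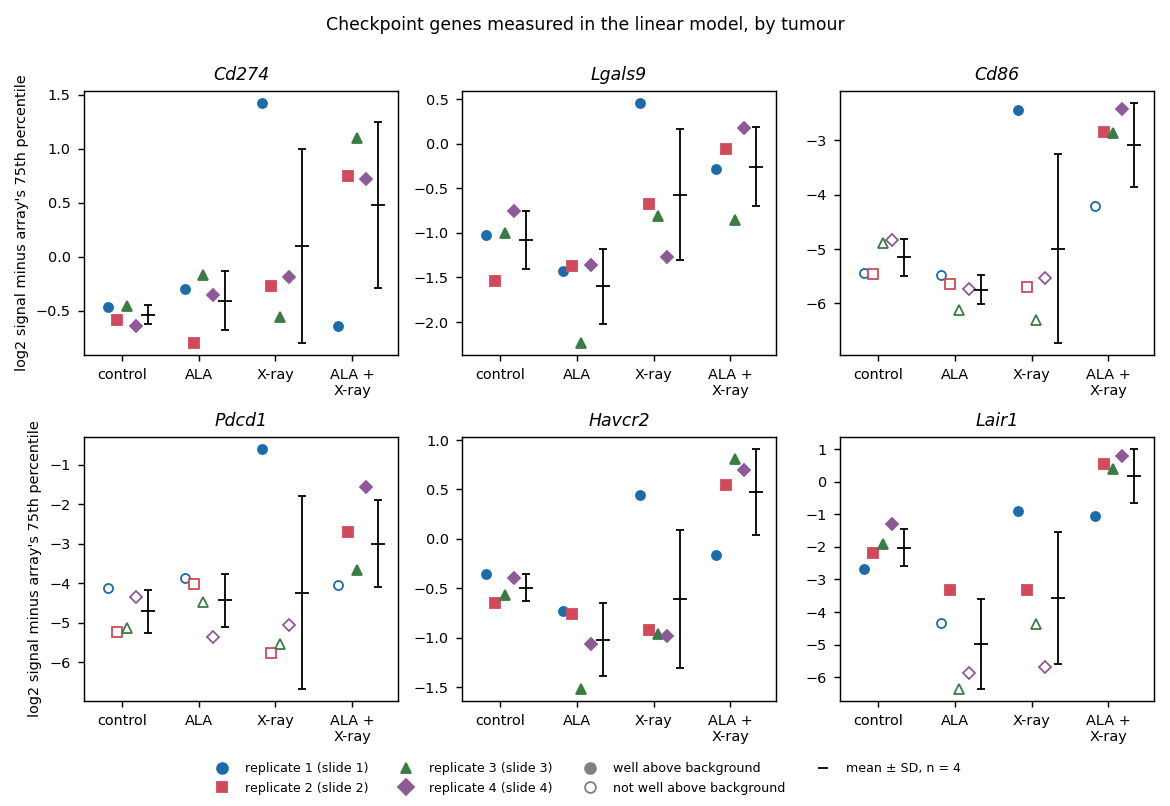
Log2 signal relative to the array's 75th percentile (y axis) for the 6 genes in the linear model, by group, with the replicate number and slide given by marker and an open marker where the spot was not well above background. The bars give the mean and SD of 4 arrays. X-ray replicate 1 is the highest of its group in 6 of 6 genes and ALA plus X-ray replicate 1 the lowest of its group in 5 of 6.

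Among the ligands, Cd274 was measured on every array. Its level was -0.47, -0.58, -0.45 and -0.64 in control, -0.30, -0.80, -0.17 and -0.35 in ALA, 1.43, -0.27, -0.56 and -0.19 in X-ray, and -0.64, 0.75, 1.10 and 0.72 in ALA plus X-ray tumours. All but 1 of the combined tumours lay above every control and every ALA tumour, replicate 1 lay within the control range, and the single highest tumour of all 16 was X-ray replicate 1. The difference from control was 1.02 ± 0.40 (log2 fold change ± SE) and from ALA 0.89 ± 0.40, and neither passed (adjusted p = 0.0748 and 0.114, limma). Within slides the difference from control was -0.17, 1.33, 1.55 and 1.36. Leaving out X-ray replicate 1, which enters through the shared variance, or ALA plus X-ray replicate 1 brought Cd274 past the threshold against control (adjusted p = 0.00829 to 0.0227) and against ALA (0.0144 to 0.0397).

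Lgals9, the TIM-3 ligand, was also measured on every array. It stood at -1.02, -1.54, -1.003 and -0.75 in control, -1.43, -1.37, -2.24 and -1.36 in ALA, 0.46, -0.67, -0.81 and -1.27 in X-ray, and -0.29, -0.06, -0.86 and 0.18 in ALA plus X-ray tumours. The combined group lay wholly above the ALA group and overlapped control and X-ray. It was 2.54-fold higher than in ALA (1.34 ± 0.34, adjusted p = 0.0138), and the 4 slides gave 1.14, 1.31, 1.38 and 1.54. Against control the difference was 0.82 ± 0.34 (adjusted p = 0.0847), or 0.0347 without X-ray replicate 1.

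Cd86, a ligand of both CD28 and CTLA-4, was dim. The level of its brighter probe was -5.43, -5.46, -4.89 and -4.84 in control, -5.49, -5.64, -6.12 and -5.73 in ALA, -2.43, -5.71, -6.31 and -5.53 in X-ray, and -4.20, -2.84, -2.86 and -2.42 in ALA plus X-ray tumours. Only X-ray replicate 1 and ALA plus X-ray replicates 2 to 4 were well above background, and the combined group lay wholly above control and ALA. Since no control or ALA array measured it, a fold against a floor is given. The floor is the dimmest signal that counts as above background on each array, or the probe's own signal where higher. Against it Cd86 was 3.20-fold higher than in control (fitted 2.07 ± 0.64, adjusted p = 0.0305) and 3.56-fold higher than in ALA (2.67 ± 0.64, adjusted p = 0.0115). The combined mean includes replicate 1, which was not well above background, so these folds are not strict lower limits. These calls depend on the background correction: under a normexp background with an offset of 50 the differences were 0.02 and 0.18 (adjusted p = 0.951 and 0.592), and the cause was not tested. The call against control was also lost, at adjusted p = 0.0509 to 0.0797, on leaving out control replicate 1, 2 or 4 or ALA plus X-ray replicate 2, 3 or 4. The second Cd86 probe gave 1.80 ± 0.61 against ALA (adjusted p = 0.0467 among 21644 probes) and 1.50 ± 0.61 against control (0.0860). Against X-ray alone the first probe gave 1.91 ± 0.64 (adjusted p = 0.106), with -1.77 on slide 1, and it passed without X-ray replicate 1, the only X-ray array that measured it, or without ALA plus X-ray replicate 1 (0.00146 to 0.0292). Its interaction, 2.51 ± 0.90 (adjusted p = 0.162), passed without X-ray replicate 1 (0.00243).

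Cd80, the sister ligand, did not enter the model. Its probe A_51_P418295 was well above background on 1 array, ALA plus X-ray replicate 3, at -3.75, and A_52_P244005 on none. Pdcd1lg2 was well above background on 3 arrays, at -2.91 in control replicate 2, -3.11 in X-ray replicate 3 and -3.86 in ALA plus X-ray replicate 4. The 3 bright arrays of this gene came from 3 groups and 3 slides, so no group had a measured Pdcd1lg2 level on more than 1 array.

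**Figure D2:**
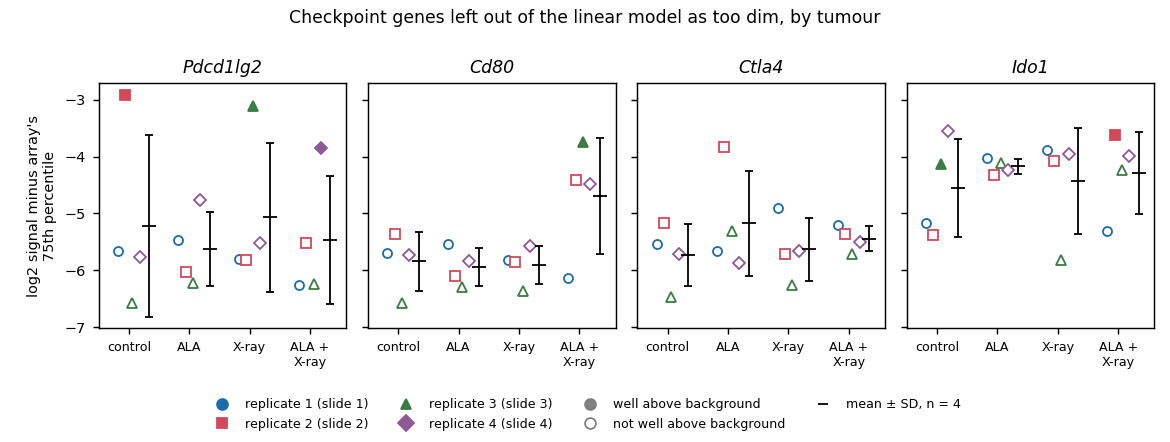
Log2 signal relative to the array's 75th percentile (y axis) for Pdcd1lg2, Cd80 (A_51_P418295), Ctla4 and Ido1, by group, with open markers where the spot was not well above background and bars for the mean and SD of 4 arrays. Filled markers appear on 3, 1, 0 and 2 of the 16 arrays.

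Of the receptors, Pdcd1 rose above background in few tumours. Its level was -4.13, -5.24, -5.14 and -4.36 in control, -3.88, -4.01, -4.48 and -5.36 in ALA, -0.60, -5.77, -5.53 and -5.05 in X-ray, and -4.05, -2.71, -3.66 and -1.57 in ALA plus X-ray tumours. X-ray replicate 1 was the brightest by a wide margin, and the only other arrays well above background were ALA plus X-ray replicates 2, 3 and 4. No control or ALA array measured the gene, and combined replicate 1 was itself not well above background. Against control the mean was 3.19-fold higher on the floor described for Cd86. The fitted difference of 1.72 ± 0.92 did not pass (adjusted p = 0.177, or 0.0225 without X-ray replicate 1). Under the normexp background it was 0.28 (adjusted p = 0.568). Against X-ray alone it was 1.24 ± 0.92 (adjusted p = 0.431), and slide 1 gave -3.45. It passed without X-ray replicate 1 (adjusted p = 0.0138), where no X-ray array with a measured level remained. Against ALA the mean was 2.61-fold higher on that floor (fitted 1.43 ± 0.92, adjusted p = 0.257, or 0.0466 without X-ray replicate 1). Ctla4 was not well above background on any array.

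Havcr2, encoding TIM-3, was bright on all 16 arrays. It was -0.36, -0.65, -0.56 and -0.40 in control, -0.73, -0.76, -1.52 and -1.06 in ALA, 0.44, -0.92, -0.97 and -0.98 in X-ray, and -0.16, 0.55, 0.81 and 0.70 in ALA plus X-ray tumours. The combined tumours lay above every control and every ALA tumour, and the ALA tumours lay below every control. Expression was 2.81-fold higher than in ALA (1.49 ± 0.30, adjusted p = 0.00595) and 1.95-fold higher than in control (0.96 ± 0.30, adjusted p = 0.0339). The call against ALA held in 16 of 16 fits with 1 array left out. The call against control held in 9, and was lost (adjusted p = 0.0595 to 0.0950) without any 1 of the control arrays or of ALA plus X-ray replicates 2 to 4.

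Against X-ray alone Havcr2 was 1.08 ± 0.30 higher and did not pass (adjusted p = 0.0687). The slides gave -0.61, 1.47, 1.77 and 1.69. Leaving out X-ray replicate 1 or ALA plus X-ray replicate 1 brought it past the threshold, at adjusted p = 0.00285 to 0.0139. The interaction of the treatments on Havcr2, 1.61 ± 0.43 (adjusted p = 0.0762), did likewise (0.00362 to 0.0232). The second Havcr2 probe, printed above, was not well above background on any array, so it bears on none of these values.

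Lair1 showed the widest differences of the set. Its brightest probe (A_51_P503797) was at -2.68, -2.20, -1.91 and -1.31 in control, -4.34, -3.34, -6.36 and -5.87 in ALA, -0.91, -3.32, -4.36 and -5.68 in X-ray, and -1.06, 0.56, 0.40 and 0.80 in ALA plus X-ray tumours. The ALA tumours lay below every control and the combined tumours above every control, while the X-ray tumours spread from above the controls to far below them. It was well above background on 4 control, 1 ALA, 2 X-ray and 4 combined arrays, so the ALA and X-ray means, and the fitted differences from them, rest partly on spots without a measured level.

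The combined tumours exceeded ALA by 5.15 ± 0.86 (adjusted p = 0.00266) and X-ray by 3.74 ± 0.86 (adjusted p = 0.0429). Against control the difference was 2.20 ± 0.86 (adjusted p = 0.0742), although the groups did not overlap, and it passed without X-ray replicate 1 or 4 or ALA plus X-ray replicate 1 (0.0292 to 0.0496). The interaction, which asks whether the effect of both treatments departs from the sum of their separate effects on the log2 scale, was 6.70 ± 1.22 (adjusted p = 0.0290). With the slide as a block, the contrast with X-ray and the interaction missed the threshold (adjusted p = 0.0544 and 0.0575), while the contrast with ALA held (0.00647). The sizes depend on the background correction: under normexp the difference from ALA was 2.25, from X-ray 2.00 and the interaction 2.72, each still past the threshold (adjusted p = 0.000942, 0.0133 and 0.0163).

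A second Lair1 probe, A_52_P668543, gave 3.88 ± 0.69 against ALA (adjusted p = 0.00340), 3.21 ± 0.69 against X-ray (0.0424) and 5.16 ± 0.97 for the interaction (0.0298) among 21644 probes. The third, A_52_P219230, was not well above background on any array. Leaving out single arrays ended the call against X-ray in 12 of 16 fits (adjusted p up to 0.130): each control, ALA replicates 1 and 4, X-ray replicates 2 to 4 and ALA plus X-ray replicates 2 to 4. Control and ALA arrays are not in this contrast and enter through the shared variance and the adjustment. Without 1 of them the estimate stayed at 3.74, and the lost calls had adjusted p = 0.0525 to 0.0607 (limma). The interaction was lost in 11 of 16 (up to 0.0733): control replicates 2 to 4, ALA replicates 3 and 4, X-ray replicates 2 to 4 and ALA plus X-ray replicates 2 to 4.

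**Figure D3:**
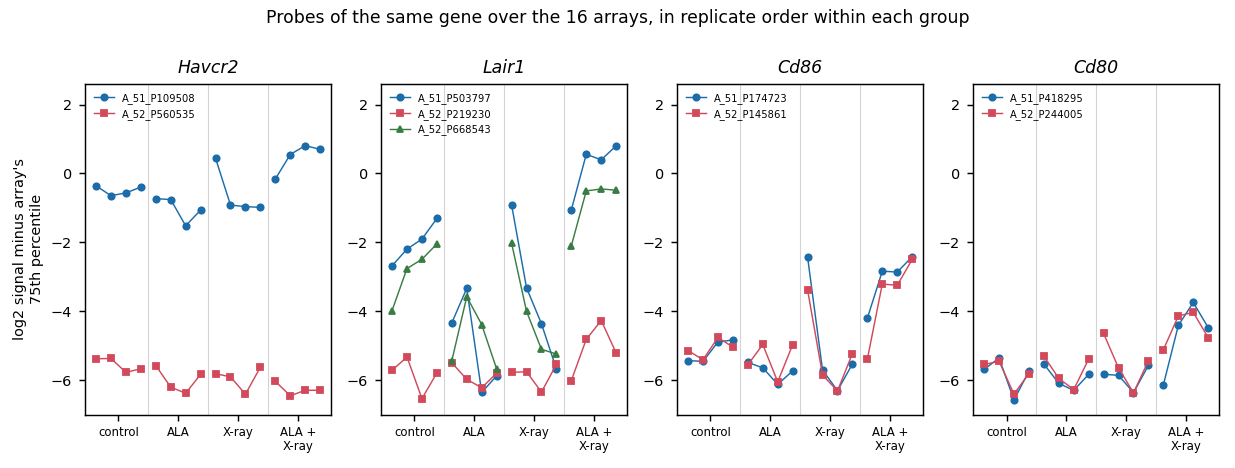
Log2 signal relative to the array's 75th percentile (y axis) for each probe of Havcr2, Lair1, Cd86 and Cd80 over the 16 arrays, 4 per group in replicate order (x axis). Lair1 A_51_P503797 and A_52_P668543 move together and so do both Cd86 probes, while Havcr2 A_52_P560535, Lair1 A_52_P219230 and Cd80 A_52_P244005 were not well above background on any array.

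Ido1 was well above background on 2 arrays, control replicate 3 at -4.13 and ALA plus X-ray replicate 2 at -3.63. The other 14 spots gave no measured level, and no group can be called higher or lower.

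Counted by comparison, 4 of the 6 tested genes rose in combined tumours against ALA, where 10.7% of all 15409 genes were called higher. Their median difference was 1.46 against -0.13 over all genes. Against control 2 of 6 rose, beside a background of 9.77% called higher, and the median was 1.37 against -0.08. Set against X-ray, 1 of 6 rose, with 1.3% called higher among all genes, and for the interaction 1 of 6, with 0.902%. These comparisons share arrays and are not independent of each other. A gene could also enter the model through the group in which it is bright. Cd86 and Pdcd1 entered only through X-ray replicate 1 and ALA plus X-ray replicates 2 to 4. Their part in these counts and medians was therefore partly set by the filter. With the filter on all 16 arrays, 1 of 3 genes rose against control and 2 of 3 against ALA. In that fit 1194 and 1224 of 12146 genes were called higher.

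Neither treatment alone moved a tested gene past the threshold. In X-ray against control limma called 0 of 6, with 0 at an unadjusted p under 0.05, while 3.37% of all genes were called. Cd274 and Lgals9 had differences of 0.64 ± 0.40 and 0.51 ± 0.34 (adjusted p = 0.379 and 0.404), and Lair1 of -1.54 ± 0.86 (0.316). In ALA against control 0 of 6 were called, with 1 (Lair1, -2.95 ± 0.86) at an unadjusted p under 0.05, and 0.0% of all genes were called, with 963 under an unadjusted 0.05. Havcr2, Lair1 and Cd86 had all 4 ALA values below all 4 control values, a pattern that 2.51% of all genes showed. For Cd86 no array of either group was well above background.

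**Figure D4:**
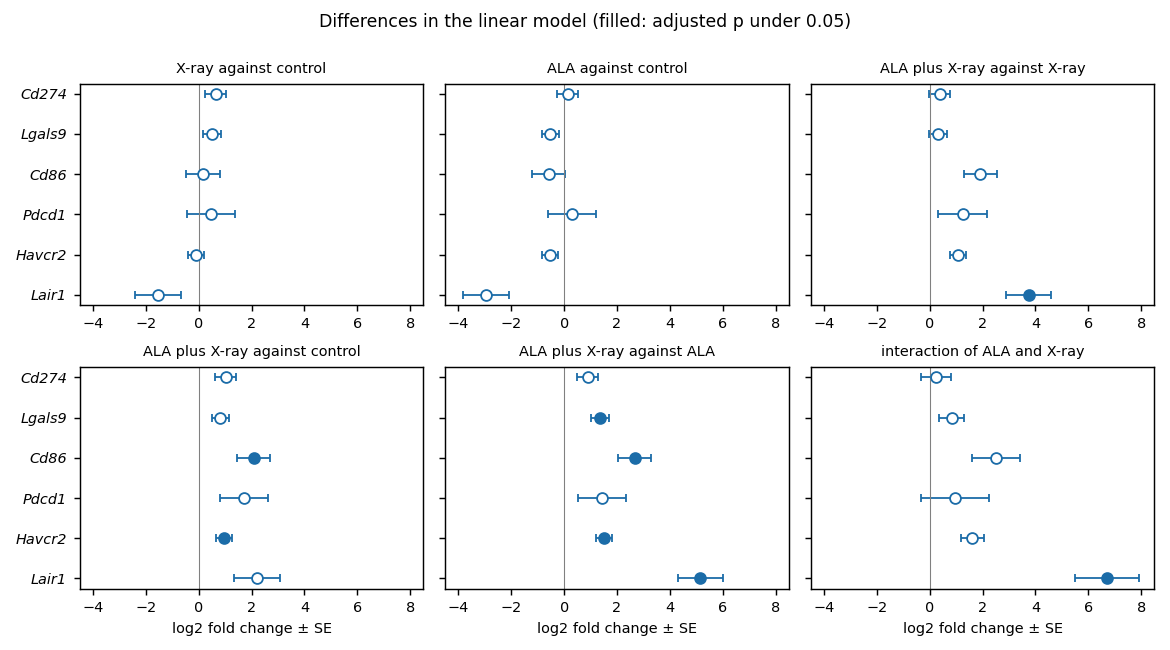
Log2 fold change with its SE (x axis) for the 6 genes in each of the 6 comparisons of the linear model, filled where the Benjamini-Hochberg adjusted p was under 0.05. All 6 points lie above 0 in the 3 comparisons of ALA plus X-ray with another group and in the interaction, and filled points number 4 against ALA, 2 against control, 1 against X-ray and 1 for the interaction.

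Slide 1 ran against the others in the contrast of combined and X-ray tumours. On it the difference was below 0 for Cd274 (-2.07), Pdcd1 (-3.45), Havcr2 (-0.61), Lgals9 (-0.75), Lair1 (-0.15) and Cd86 (-1.77), while on slides 2 to 4 it was above 0 for every gene but Lgals9 on slide 3 (-0.05). Without that slide, an alternative chosen after seeing the data because the slide ran against this contrast, 5 of 6 genes passed against X-ray. Havcr2 and Cd274, measured on every array, then gave 1.64 and 1.20 (adjusted p = 0.000321 and 0.00184), and Lgals9 did not pass (0.67, adjusted p = 0.177). The other calls were Cd86, Pdcd1 and Lair1, for which 3, 3 and 2 of the 3 X-ray arrays left had no measured level, so no size is given. Without slide 1, 5 of 6 likewise passed against control and 6 of 6 against ALA. More of all 15409 genes were called higher in that fit as well. The numbers were 1350 against X-ray, 1880 against control and 1870 against ALA, beside 201, 1505 and 1651 with all arrays.

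The other inhibitory receptors and ligands of the array followed in part. Of 21 listed, 12 were tested, and 7 rose and 0 fell in combined tumours against ALA, with a median of 0.79. Of all 15409 genes, 10.7% were called higher in that comparison. Vsir (VISTA, a myeloid inhibitory receptor) stood at -2.68, -3.05, -3.55 and -3.78 in ALA and at -1.80, 0.42, 0.28 and 1.08 in combined tumours, without overlap, and was 3.26 ± 0.70 higher (adjusted p = 0.00740). Cd48, the ligand of the receptor 2B4, was 3.19 ± 0.52 higher (0.00248). Lilrb4a, an inhibitory myeloid receptor, was 2.23 ± 0.58 higher (0.0162), and Cd47, the signal that restrains phagocytosis through SIRP alpha, 0.75 ± 0.18 higher (0.0133). Cd200 was 0.83 ± 0.22 higher (0.0182) and Pilra 1.46 ± 0.50 higher (0.0485). Cd244a, encoding 2B4 itself, was 2.69 ± 0.77 higher (0.0234), with no ALA array well above background. It was so on 1 control, 1 X-ray and 4 combined arrays. Without the combined arrays it would not have entered the model, so its part in the count was partly set by the filter.

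Against control 4 of these 12 rose and 1 fell, where 9.77% of all genes were called higher and 15.1% lower. Vsir was 2.72 ± 0.70 higher (adjusted p = 0.0155, limma), Cd47 0.79 ± 0.18 (0.0106) and Cd48 1.66 ± 0.52 (0.0338, or 0.0528 with the slide as a block). Lag3, an inhibitory receptor of T cells that binds MHC class II, was 2.20-fold higher against the floor (0.0465). It was measured on 2 of 4 combined arrays and no control array. With ALA alone, where 3 arrays measured Lag3, it was 2.05 ± 0.54 from control (0.754), and the combined group differed from ALA by -0.48 ± 0.54 (0.531). Cd276 (B7-H3) was the gene that fell, with a difference of -1.09 ± 0.35 (0.0352). Cd48 alone of the 12 passed against X-ray, at 2.30 ± 0.52 (0.0429), and for the interaction, at 3.83 ± 0.74 (0.0297), and both calls missed the threshold with the slide as a block (0.0585 and 0.0614).

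Co-stimulatory genes, the accelerators that oppose these brakes, gave 6 tested of 14. Tnfsf9 (4-1BB ligand) rose in X-ray against control (0.80 ± 0.18, adjusted p = 0.0338, limma) and in combined tumours against control (0.67 ± 0.18, 0.0193). In ALA against control Tnfsf9 had a difference of similar size that did not pass (0.76 ± 0.18, 0.603). Combined tumours differed from ALA by -0.09 ± 0.18 (0.731). Against ALA, Tnfrsf18 (GITR) was 1.58 ± 0.39 higher (0.0139) and Cd40 3.47-fold higher against the floor (0.0177). Cd40 was well above background on 2 control, 0 ALA, 1 X-ray and 3 combined arrays, so it entered the model only with the combined arrays. In the kynurenine pathway, where Ido1 itself gave no level, 3 of 8 listed genes were tested. Ahr, the receptor that senses kynurenine, rose in X-ray against control (1.48 ± 0.34, 0.0342), in the combined group against control (1.66 ± 0.34, 0.00647) and against ALA (1.19 ± 0.34, 0.0224), and Afmid, a later enzyme of the pathway, was -0.59 ± 0.19 against control (0.0356).

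Interferon gamma signalling was tested through 12 of 12 listed genes. Gbp2, an interferon-induced GTPase, was at -4.81, -2.47, -1.57 and -1.07 in control and 1.80, 2.26, 1.55 and 1.83 in combined tumours, with no overlap, a difference of 4.34 ± 1.25 (adjusted p = 0.0239). X-ray replicate 1 was higher than any of them, at 3.90. Against ALA, Gbp2 (3.75 ± 1.25, 0.0427), the T-cell attracting chemokine Cxcl9 (3.68 ± 1.26, 0.0470) and the receptor subunit Ifngr1 (0.63 ± 0.18, 0.0219) rose. The first 2 of these missed the threshold with the slide as a block (0.0641 and 0.0723). Against X-ray alone limma called 0 of the 12. Of the 16 fits with 1 array left out, the calls of Pilra and Cxcl9 against ALA held in 3, the Cd48 interaction in 4, Cd48 against X-ray and Lag3 against control in 5, Gbp2 against ALA in 7, and Tnfsf9 and Ahr in X-ray against control in 8. The other calls in these lists held in 11 or more.

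Macrophage markers, and in part those of other cells, were higher in the combined tumours. The summed signal of 14 macrophage and monocyte markers, 11 of them well above background on all 16 arrays, lay between 151.3 and 294.2 times the percentile in combined tumours, 62.4 and 114.1 in controls, 19.58 and 113.4 in irradiated and 12.78 and 40.76 in ALA tumours. In the combined tumours 13 of the 14 rose against ALA, 5 against control and 6 against X-ray. Of all 15409 genes, 10.7%, 9.77% and 1.3% were called higher in these comparisons, shares that also stand beside the marker counts below. Within X-ray, replicate 1 had the highest sum. Lyz2 made up 58.4% to 81.3% of these sums, and without it they were 29.7 to 120 in combined, 14.6 to 33.4 in control, 4.03 to 38.9 in irradiated and 3.00 to 10.1 in ALA tumours, so that combined replicate 1 lay within the control range. The 14 T and NK cell markers summed to between 0.459 and 0.965 in control, ALA and X-ray replicates 2 to 4. Their sum was 5.47 in X-ray replicate 1 and between 1.03 and 6.56 in combined tumours. Of the 14, 9 were well above background on no control array, 9 on no ALA array and 3 on no combined array. These sums therefore include many spots without a measured level, and Ncr1 was not well above background on any array. Lck alone was measured on all 16 arrays. It differed by -0.06 ± 0.43 from ALA and by -0.10 ± 0.43 from control (adjusted p = 0.930 and 0.884, limma). Of 7 tested, 2 (Gzmb and Nkg7) rose against ALA, the same 2 against control and 0 against X-ray. Gzmb was well above background on 0 control, 0 ALA, 1 X-ray and 4 combined arrays, and Nkg7 on 1, 0, 1 and 4. Both would not have entered the model without the combined arrays, so these counts were partly set by the filter. Of 9 dendritic cell markers, Flt3, Clec9a, Cd209a and Siglech were not well above background on any array. The sums overlapped between all groups (1.08 to 2.19), and Batf3 was the brightest of the 9 on every array. Of 5 tested, 1 rose and 1 fell against ALA, 0 passed against control or X-ray, and 1 was higher for the interaction. Itgax had log2 values of -5.42 to -4.78 in ALA and -1.21 to -0.55 in combined tumours. It was well above background on 0 ALA and 4 combined arrays. Xcr1, well above background on 4 ALA and 4 combined arrays, went the other way. It stood at -2.47 to -0.75 in ALA and at -3.05 to -2.76 in combined tumours. The median of the 5 against ALA was -0.08, with 2 above 0 and 3 below. No B and plasma cell marker passed in these comparisons, of 2 tested. Markers of other cells moved as well: 4 of 5 fibroblast markers rose against ALA and 0 against control or X-ray, with sums of 47.2 to 290.4 in combined tumours and 11.6 to 69.7 elsewhere. The 6 skeletal muscle markers had a median of 4.09 against ALA with 0 called, and sums of 0.197 to 325.6 over all tumours. Of 2 neutrophil markers tested, S100a8 rose against control (3.04 ± 0.95, adjusted p = 0.0331, limma). S100a8 was well above background on 1 control, 4 ALA, 1 X-ray and 3 combined arrays. The median of the 2 was 2.61 in ALA against control and 0.66 in combined tumours against ALA, with 0 called in either. The part of any of these cells in the differences was not tested.

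**Figure D5:**
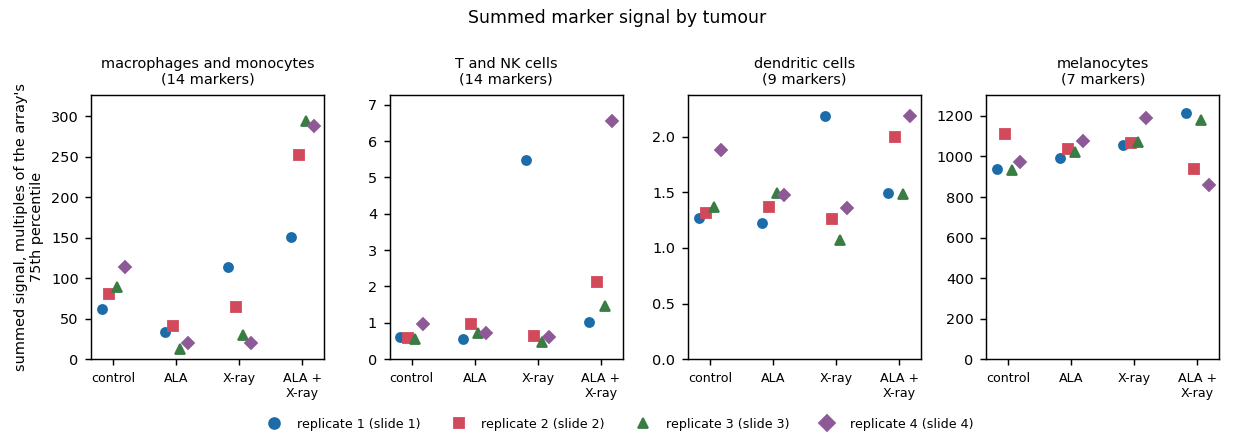
Summed signal of the markers of macrophages and monocytes, T and NK cells, dendritic cells and melanocytes in each tumour, as multiples of the array's 75th percentile (y axes from 0), by group, with the replicate given by marker. The macrophage sums of all 4 ALA plus X-ray tumours (151.3 to 294.2, mostly Lyz2) lie above every other tumour, and X-ray replicate 1 stands with the combined tumours for T and NK cell markers.

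The genes whose pattern over the 16 arrays was most like each checkpoint gene were read off as Pearson correlations, which are descriptions over arrays that share groups and slides. Lair1 was closest to C1qc (r = 0.991), Ebi3 (0.989) and Aif1 (0.988), the first a complement chain and the last a macrophage protein. Cd86 was closest to Irf8 (0.983), Ifi203 (0.974) and Sp110 (0.971), and Havcr2 to Ncf4 (0.968), Rtl5 (0.966) and Bcl2a1b (0.963). Pdcd1 was closest to Cd8b1 (0.919), Cd8a (0.905) and Cd3d (0.903), which encode chains of the CD8 co-receptor and the T-cell receptor complex. These were well above background on 7, 5 and 6 arrays and Pdcd1 and Cd86 on 4 each, so their correlations run mostly over spots without a measured level and over X-ray replicate 1. Lgals9 was closest to Oas1a (0.916), Irf7 (0.897) and Ifitm3 (0.886), all interferon-induced, and Cd274 to Csta2 (0.948), Parp9 (0.933) and Mx1 (0.930).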

How the data were processed

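RNA from 16 tumour preparations was labelled with Cy3 and hybridised to 1-colour Agilent arrays, per the labels' protocols. Per the file headers, the deposited scanner files hold intensity on a linear scale, extracted by the authors with Feature Extraction 10.7.3.1 (the submitters' processing notes name 9.5.3.1), with quality flags as other values. The deposited value sheet holds intensity that is quantile normalised between arrays, and was an alternative.

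From the log2 processed signal each array's 75th percentile over 43379 non-control spots was subtracted. Outlier spots were dropped, spots averaged per probe, 39 probes without a valid spot left out, and the probe of highest mean stood for its gene among those well above background on at least 4 of 16 arrays. Names came from the accession for 26876 probes, the symbol for 2894, an older symbol for 351 and the file for 11053, of 41174. Models over the 4 group means were fitted with limma 3.58.1 in R 4.3.3 (package data.table, version 1.17.8, and Python 3.11.15, pandas 2.3.3, numpy 2.4.6) and Benjamini-Hochberg adjustment at 0.05, and the script was tested on simulated data. A fold against the floor sets a group's mean against the higher of each dim array's lowest detected signal and the probe's own. That mean runs over all 4 arrays, whether well above background or not, so it is not a strict lower limit. The genes and lists were chosen with earlier results of these data known. Named are all 10 genes, the called genes of 4 pathway lists (up to 6 by smallest p for a list and comparison, and Pilra besides, named after its value was seen), the 3 genes most correlated with each, and markers beside a result.

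Slide, equal to the replicate number, was the block. Deviations of the 24 same-numbered pairs from their group means correlated at -0.46 to 0.54 (median 0.064, 9 over 0.1). The settings tried besides were: background by normexp with an offset of 50; scaling by quantiles or by the median; values of the authors' table; the filter dropped or set to all 16 arrays; every probe kept; trended and robust moderation; a fit of the compared arrays; the slide block; single arrays left out; and, chosen after seeing the data, slide 1 left out. The number of arrays limits the precision.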

Additional observations from a re-analysis of the deposited data

Results flagged for a closer look

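In X-ray tumours, replicate 1 lay far from the other 3 for 2 receptors: Pdcd1 was at -0.60 with the nearest tumour at -5.05, and Havcr2 at 0.44 with the nearest at -0.92 (log2 relative to the array's 75th percentile). In ALA tumours, Lgals9 in replicate 3 was at -2.24 with the nearest at -1.43. In each the gap to the nearest tumour, as a share of the group's range, exceeded Dixon's critical value for 4 samples. Such gaps were looked for in 24 groups, and chance gives about 1 in 20. The effect of X-ray on Lair1 differed between tumours with and without ALA, by an interaction of 6.70 on the log2 scale (limma, adjusted p = 0.0290, or 0.0575 with the slide as a block). Under the normexp background it was 2.72 (adjusted p = 0.0163), and 3 ALA and 2 X-ray arrays had no measured level of the gene.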

How the results depend on the processing

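The number of the 6 genes called against X-ray was 1, and 0 with the authors' table, without the filter, with the filter on all 16 arrays, with the replicate block or with only the arrays compared. Against control it was 2, and 1 with median scaling, without the filter or with the filter on all 16 arrays. Against ALA it was 4, and 2 with the filter on all 16 arrays, which left 3 of the 6 genes in the fit. For the interaction it was 1, and 0 with that filter or with the replicate block. Without slide 1 these counts were 5 against X-ray, 5 against control and 4 for the interaction. Of all 15409 genes, 1350, 1880 and 943 were then called higher, beside 201, 1505 and 139 with all arrays. Other settings kept each count within 1.5 times. With 1 array left out the counts ranged from 0 to 4 against X-ray, 0 to 6 against control, 4 to 6 against ALA and 0 to 3 for the interaction, and stayed at 0 for either treatment alone. The highest of each came without X-ray replicate 1. In that fit 748, 1642, 1693 and 532 of all 15409 genes were called higher, in the same order. Under normexp the count against control stayed at 2, with Lair1 (1.53, adjusted p = 0.00603) past the threshold and Cd86 not.

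Signs turned only for differences that passed no test: in X-ray against control, Pdcd1 (-0.54 without slide 1, -0.74 to 0.99 with 1 array left out), Cd86 (-0.26 under normexp, -0.79 without slide 1, -0.69 to 0.60 with 1 array left out) and Havcr2 (0.0099 under normexp, -0.46 to 0.011 with 1 array left out), and in ALA against control Cd274 (-0.16 under normexp). Median scaling moved the median of all genes by -0.119 in ALA against control. The cause was not tested. The replicate numbers did not deviate together in most pairs, and the replicate block changed no other call of the 6 genes. Spots near background limit Cd86, Pdcd1 and the ALA and X-ray levels of Lair1.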
